A study of Homo sapiens with 12 samples.

Results

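The vascular endothelial growth factor (VEGF) system was measured as RNA in A375, an established human melanoma cell line. Its genes were the ligands VEGFA, VEGFB, VEGFC and PGF, the receptor tyrosine kinases FLT1, KDR and FLT4, and the co-receptors NRP1 and NRP2. They were chosen by symbol, with earlier results of these data known, and all 9 were found among the 56609 symbols of the count table. Of these, 8 passed the filter on low counts and entered the tests with 21690 other genes. FLT4 did not pass, and it is described by its counts alone.

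The series asked how loss of MAPKAPK2 changes the response of melanoma cells to BET bromodomain inhibitors. MAPKAPK2 encodes MK2, a stress-activated kinase downstream of p38, and JQ1 is a compound that displaces BET proteins from acetylated chromatin. There were 4 groups of 3 libraries: wild-type cells with DMSO, wild-type cells with 500 nM JQ1, MAPKAPK2-knockout cells with DMSO and MAPKAPK2-knockout cells with 500 nM JQ1. All cultures were harvested at 48 h, and every comparison was between cultures of the same parental line. The knockout was made with CRISPR/Cas9, and the labels do not say whether it was a single clone or a pool. Sample titles call the cultures without JQ1 untreated, and their treatment field gives DMSO, the vehicle, which was followed here. The labels do not say that replicates came from separate cultures, so the tests measure the spread between these libraries, which may be technical.

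VEGF ligands are secreted dimers that signal through receptor tyrosine kinases best known from blood and lymphatic endothelium. VEGFA binds FLT1 (VEGFR1) and KDR (VEGFR2), PGF and VEGFB bind FLT1, and VEGFC binds FLT4 (VEGFR3) and, after processing, KDR. KDR carries most of the mitogenic signal, while FLT1 binds VEGFA tightly with a weaker kinase and also has a soluble form that acts as a trap. The neuropilins NRP1 and NRP2 lack a kinase, bind VEGFs and class 3 semaphorins, and are often present on tumour cells. VEGFA transcription is induced by hypoxia-inducible factors, and its mRNA carries AU-rich elements through which RNA-binding proteins such as ZFP36, a substrate of MK2, control stability.

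Promoters are shown for 4 members whose RNA differed between the genotypes: KDR and VEGFC, which were lower in knockout cells, and FLT1 and NRP2, which were higher. Each is 300 bases, from 250 before to 50 after the RefSeq start of the gene, on the strand of the gene (RefSeq, GRCh38.p14), with each GC box (GGGCGG or, on the other strand, CCGCCC) in capitals. They lie at chr4:55125546-55125845 (minus strand, KDR), chr4:176792873-176793172 (minus, VEGFC), chr13:28495079-28495378 (minus, FLT1) and chr2:205682251-205682550 (plus, NRP2).
KDR promoter: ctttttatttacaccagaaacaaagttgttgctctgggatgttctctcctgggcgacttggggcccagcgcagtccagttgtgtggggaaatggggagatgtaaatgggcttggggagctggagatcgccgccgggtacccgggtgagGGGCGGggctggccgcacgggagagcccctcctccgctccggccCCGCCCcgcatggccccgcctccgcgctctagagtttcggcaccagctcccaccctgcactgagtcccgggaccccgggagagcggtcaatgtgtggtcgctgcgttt
VEGFC promoter: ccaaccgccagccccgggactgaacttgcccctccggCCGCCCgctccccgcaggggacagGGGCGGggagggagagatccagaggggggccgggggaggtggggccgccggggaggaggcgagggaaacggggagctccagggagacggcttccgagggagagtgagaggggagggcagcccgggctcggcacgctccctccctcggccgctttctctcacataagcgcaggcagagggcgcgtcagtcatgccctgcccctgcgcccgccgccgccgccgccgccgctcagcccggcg
FLT1 promoter: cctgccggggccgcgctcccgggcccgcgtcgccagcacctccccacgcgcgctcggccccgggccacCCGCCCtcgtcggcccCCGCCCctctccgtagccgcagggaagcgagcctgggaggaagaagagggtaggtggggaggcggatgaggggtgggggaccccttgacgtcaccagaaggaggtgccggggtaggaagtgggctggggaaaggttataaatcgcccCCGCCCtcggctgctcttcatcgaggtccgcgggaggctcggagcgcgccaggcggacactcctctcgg
NRP2 promoter: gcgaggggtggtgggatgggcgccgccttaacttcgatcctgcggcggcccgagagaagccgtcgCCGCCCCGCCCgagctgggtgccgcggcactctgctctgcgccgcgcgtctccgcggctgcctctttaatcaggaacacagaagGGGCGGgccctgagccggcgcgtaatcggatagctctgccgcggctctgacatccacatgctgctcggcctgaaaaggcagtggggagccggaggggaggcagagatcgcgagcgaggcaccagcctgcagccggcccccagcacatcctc

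All 4 promoters were rich in G and C: 65% in KDR, 76.3% in VEGFC, 73.3% in FLT1 and 70% in NRP2, against a median of 58.7% over all RefSeq promoters of the same length. The GC box was found 2 times in KDR and VEGFC and 3 times in FLT1 and NRP2, with the first pair in NRP2 overlapping by a base. Of 35116 promoters, 45% held a GC box, so its presence did not set these genes apart. The FLT1 window also held TATAAA (7.33% of promoters), 31 bases before the start. None of the 4 windows held, on either strand, the AP-1 letters TGACTCA (4.95% of promoters), the hypoxia response core ACGTG (21.4%) or the E-box CACGTG, which contains that core (7.26%). The promoter table matched 6 of the 9 members, including VEGFB and PGF. VEGFA, NRP1 and FLT4 were missing.

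Because MK2 acts on AU-rich mRNAs, the 3′ untranslated regions of the members were also searched in GENCODE release 29 transcripts (longest region per gene). The 9-base AU-rich core TTATTTATT occurred in VEGFA and FLT1, 1 time each, and in 9.68% of 13941 tested coding genes. The pentamer ATTTA occurred 19 times in the 4153 bases of FLT1, 10 times in the 1925 bases of VEGFA, 5 times in NRP1, 4 in KDR, 2 each in PGF and NRP2, 1 in VEGFC, and not in VEGFB or FLT4. Per kilobase this gave 4.58 for FLT1 and 5.19 for VEGFA, against a median of 1.69. VEGFC (2.58), KDR (2.38), PGF (2.29) and NRP1 (1.93) also lay above that median, and NRP2 (0.627) lay below it. The site of FLT1, at base 524 of the region, is shown with the core in capitals.
FLT1 AU-rich site: gttataatgcTTATTTATTtgaaaatgctt

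The libraries held 25316565 to 34594025 counts. MAPKAPK2 stood at 89.6 CPM (counts per 1000000 of the TMM-scaled library) in wild-type DMSO libraries and at 12.4 CPM in knockout DMSO libraries, and it was likewise low in knockout JQ1 libraries (14.4 against 117 CPM), which matches the labels. A single library stood apart: knockout JQ1 replicate 3 differed from the other 2 of its group with a chi-square per degree of freedom of 26.1 and 27.5, against 3.35 to 7.64 for all other replicate pairs. The members' fold changes with JQ1 and between the genotypes that use this library are therefore given with and without it. The same holds for the counts over the gene lists. Interactions of members are given with it, and those of KDR and NRP1 also without it. Genes of the lists are given with it, and without it where a named call was lost or a value moved by more than 1.5 times. Of 7 melanocyte-lineage markers, 5 passed the filter on low counts. As group means SOX10 was at 437 to 563 CPM and MITF at 28.8 to 43.1, while MLANA was under 1 CPM. Over the libraries S100B stood at 27.8 to 49.1 CPM and PMEL at 0.246 to 1.45 CPM. TYR and DCT did not pass the filter and reached at most 0.289 and 0.456 CPM. Of 12 endothelial markers, 7 passed the filter. The sum of all 12 was 29.1 to 30.2 CPM in wild-type DMSO libraries and 17.6 to 19.3 with JQ1. In knockout libraries the sum was 24.8 to 26.1 CPM with DMSO and 14.1 to 16.1 with JQ1. Most of it was PROX1, ROBO4 and EGFL7. The list was thus mixed. PROX1, a lymphatic marker, stood at 7.77 to 11.6 CPM over the libraries, and ROBO4 at 7.26 to 8.52 CPM in wild-type DMSO libraries. Others were low: group means of CDH5 were 0.0635 to 0.171 CPM, of TEK 0.0127 to 0.160 and of PECAM1 0.712 to 1.05, and LYVE1 had no count in 3 of the 4 groups. Fibroblast markers (5, of which 4 were tested) summed to 15.8 to 17.4 CPM with DMSO and 4.73 to 5.75 with JQ1 in wild-type cells, and to 12.8 to 14.4 and 3.29 to 4.02 in knockout cells. Most of the fibroblast sum was PDGFRB and LUM, and COL1A2 had no count outside wild-type DMSO libraries. Blood markers summed to 8.97 to 17.1 CPM over all libraries, nearly all of it CD68 (8.76 to 16.7 CPM). PTPRC, CD14 and CD3E reached at most 0.283 CPM, and HBB had no count. The part of these markers in the results below was not tested.

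Per kilobase of transcript, the 9 genes fell into an upper set of 5 and a lower set of 4. With the median length of the coding transcripts of each gene, wild-type DMSO levels were 38.8 CPM per kilobase for NRP2, 25.5 for VEGFA, 22.0 for FLT1, 16.1 for VEGFB and 13.0 for NRP1. The lower set comprised VEGFC (1.76), PGF (1.62), KDR (1.57) and FLT4 (0.0488), and the first 3 of these lay within their spread of each other (SD 0.297, 0.301 and 0.198, n = 3). Order within the upper set changed with the length used: over the union of all exons VEGFB led at 13.8 CPM per kilobase and FLT1 was last of the 5 at 3.37. Both lengths gave the same upper and lower sets in wild-type DMSO libraries, but the gap between the sets depended on the length. With the median length it lay between 13.0 (NRP1) and 1.76 (VEGFC), and over the union of exons between 3.37 (FLT1) and 1.76 (VEGFC).

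**Figure D1:**
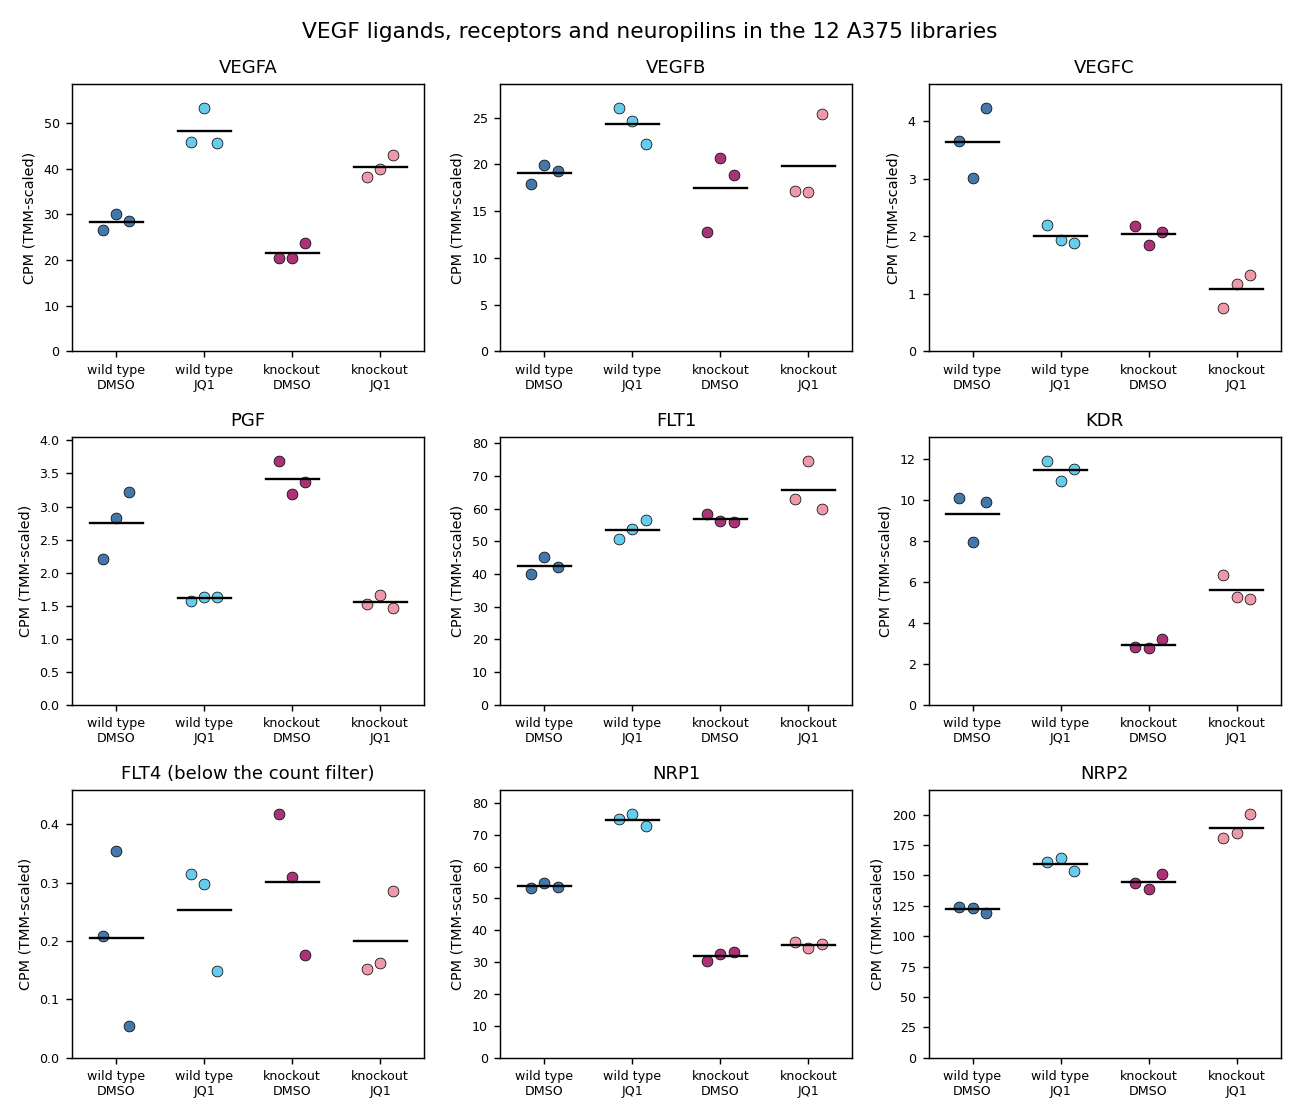
Level of each member in each of the 12 libraries (y axis, CPM of the TMM-scaled library, linear from 0, with a scale of its own in each panel; x axis, group; points, libraries; line, mean of 3). KDR and NRP1 are lower in every knockout library than in every wild-type library, VEGFA and NRP2 are higher in every JQ1 library than in every DMSO library of the same genotype, and FLT4 stays below 0.42 CPM.

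Of the 8 tested members, 6 passed in the comparison of JQ1 with DMSO in wild-type cells (4 higher, 2 lower; edgeR's quasi-likelihood test, Benjamini-Hochberg adjusted p under 0.05). Of all genes tested, 33.1% passed there, 16.9% higher and 16.2% lower. In knockout cells 5 passed with JQ1 (3 higher, 2 lower), against 34.4% of all genes, 16.7% higher and 17.8% lower. Between the genotypes 6 passed with DMSO (2 higher and 4 lower in the knockout), against 7.92% of all genes, 3.47% higher and 4.44% lower. With JQ1 5 passed (2 higher, 3 lower), against 8.57% of all genes, 3.01% higher and 5.56% lower. Median log2 fold changes over the 8 were 0.34, 0.20, -0.26 and -0.27 in that order, beside -0.03, 0.00, 0.00 and 0.00 over all genes tested. Without knockout JQ1 replicate 3 the counts were 8, 6, 6 and 7, while 38.0%, 33.6%, 11.9% and 10.5% of all genes tested passed in those fits. The comparisons share libraries (each group enters 2 of them), so their results are set side by side and not counted as separate evidence. Because the members were chosen with earlier results of these data known, their counts beside the shares of all genes are only a description. RNA was taken from whole cultures, in which fewer cells expressing a gene and less RNA per cell cannot be told apart.

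**Figure D2:**
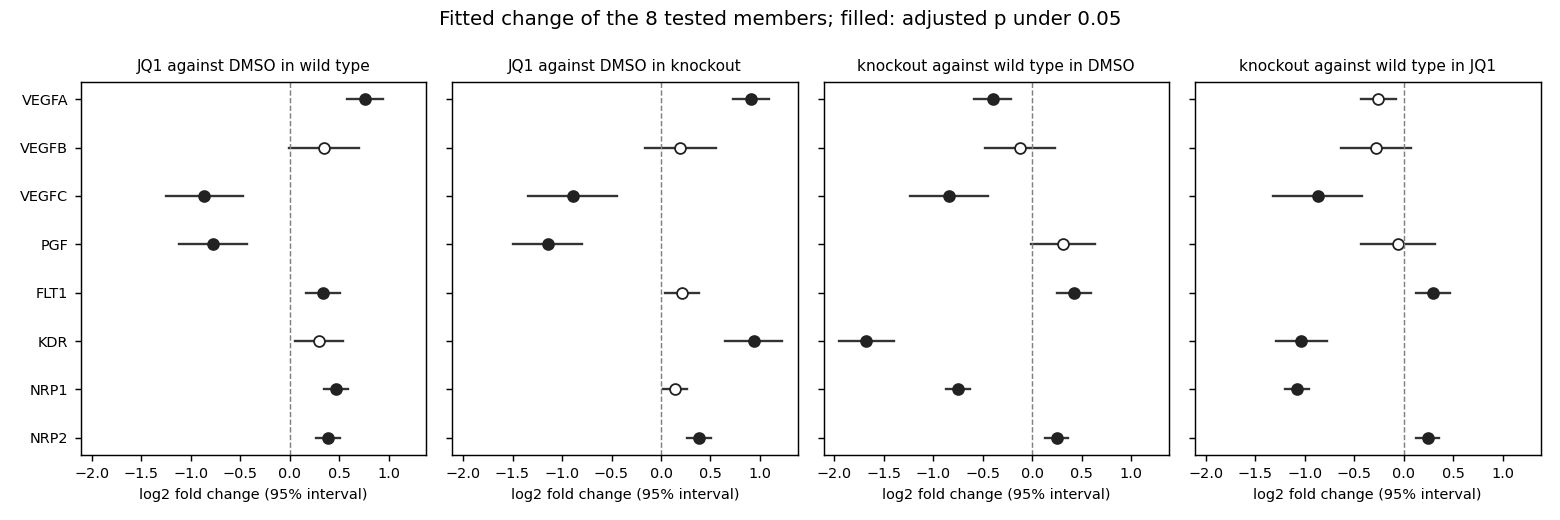
Fitted log2 fold change of the 8 tested members (x axis; point, estimate; line, 95% interval; filled, adjusted p under 0.05) in the 4 comparisons, one per panel. With JQ1, VEGFA and NRP2 lie to the right of 0 and VEGFC and PGF to the left in both genotypes; in the knockout, KDR and NRP1 lie to the left and FLT1 and NRP2 to the right in both treatments.

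VEGFA, the main angiogenic ligand, rose with JQ1 in both genotypes and was lower in the knockout with DMSO. In wild-type cells it stood at 26.6, 30.1 and 28.6 CPM with DMSO and at 45.8, 53.3 and 45.7 CPM with JQ1. Knockout cells had 20.4, 20.5 and 23.6 CPM with DMSO and 38.2, 39.9 and 42.9 CPM with JQ1. The 4 groups did not overlap: knockout DMSO was lowest, followed by wild-type DMSO, knockout JQ1 and wild-type JQ1. The rise with JQ1 was 1.70-fold in wild-type cells (log2 0.76, SE 0.08, adjusted p 7.68e-06) and 1.88-fold in knockout cells (log2 0.91, SE 0.09, adjusted p 1.53e-06) (log2 0.86 without replicate 3). Both JQ1 calls held in all 21 alternative analyses.

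Between the genotypes VEGFA was less clear. With DMSO the knockout was 1.32-fold lower (log2 -0.40, SE 0.09, adjusted p 0.00883), and with JQ1 the difference of -0.26 did not pass (adjusted p 0.0779). The DMSO call was lost, at log2 -0.35 in each case, without wild-type DMSO replicate 2 (adjusted p 0.0589) or knockout DMSO replicate 2 (0.0543). It was also lost with the authors' own normalization factors (log2 -0.42, adjusted p 0.197) and with limma on the authors' signal (-0.44, adjusted p 0.182). In JQ1 it passed without knockout JQ1 replicate 3 (log2 -0.30, adjusted p 0.0320) and with library totals as the only scaling (-0.29, adjusted p 0.0419). The factor by which the authors' normalized signal differs from the count varied 1.73-fold for VEGFA between libraries, relative to the median factor of each library. This spread was larger than that of 97.3% of 19080 genes, whose median was 1.03-fold. The factor was highest in knockout JQ1 replicate 3 (1.43) and wild-type JQ1 replicate 3 (1.26).

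**Figure D3:**
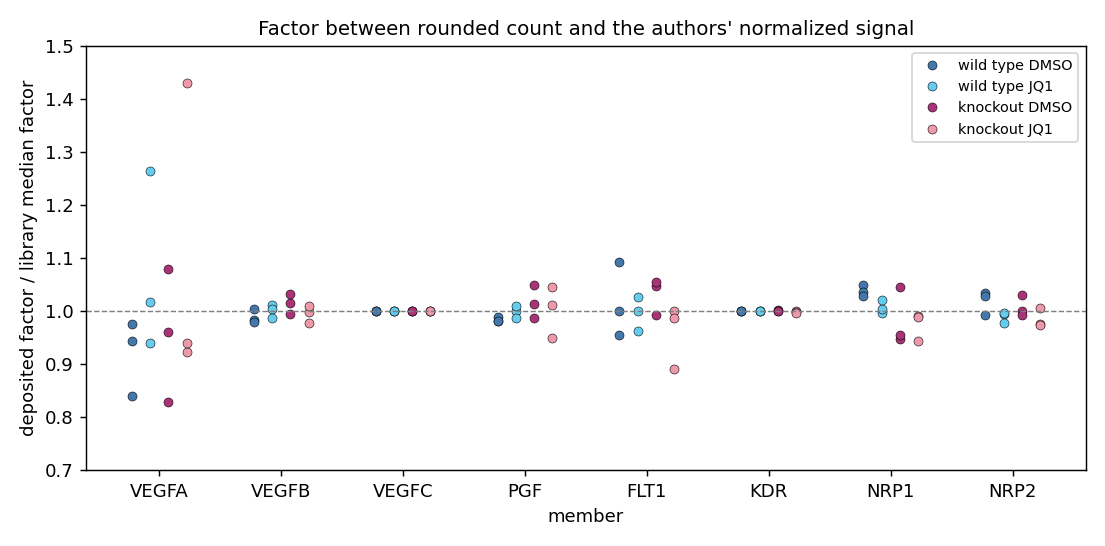
Ratio of rounded count to the authors' normalized signal for the 8 tested members in each library, divided by the median ratio of that library (y axis, from 0.7 to 1.5; points, libraries; colours, groups). VEGFA spreads from 0.828 to 1.43, whereas VEGFC and KDR stay near 1.

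VEGFB, a FLT1 ligand, did not pass in any comparison. It stood at 17.9, 19.9 and 19.3 CPM in wild-type DMSO libraries and at 26.0, 24.6 and 22.2 CPM with JQ1. The knockout libraries held 12.8, 20.7 and 18.9 CPM with DMSO and 17.1, 17.1 and 25.4 CPM with JQ1. The wild-type groups did not overlap, while the knockout groups overlapped each other, and the genotypes overlapped within each treatment. The log2 difference with JQ1 in wild-type cells was 0.35 (95% interval 0.00 to 0.70, adjusted p 0.120). This passed without knockout JQ1 replicate 3 (adjusted p 0.0364) or knockout DMSO replicate 1 (0.0473), which enter this comparison through the spread that all groups share. It also passed with only the groups compared in the fit (log2 0.37, adjusted p 0.00173) and with no filter on low counts (0.36, adjusted p 0.00775). In knockout cells the difference was 0.19 (adjusted p 0.418), and -0.03 without replicate 3. Without that replicate VEGFB was also lower in the knockout with JQ1 (log2 -0.51, adjusted p 0.0374, against -0.28 and 0.375 with it).

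VEGFC, the ligand of lymphatic growth, fell with JQ1 in both genotypes and was lower in the knockout with either treatment. Its levels in wild-type cells were 3.67, 3.01 and 4.23 CPM with DMSO and 2.20, 1.93 and 1.89 CPM with JQ1. In knockout cells they were 2.18, 1.85 and 2.07 CPM with DMSO and 0.762, 1.18 and 1.33 CPM with JQ1, from 20 to 42 counts. Wild-type DMSO libraries were highest and knockout JQ1 libraries lowest, while wild-type cells with JQ1 and knockout cells with DMSO overlapped. JQ1 gave a log2 change of -0.86 in wild-type cells (SE 0.18, adjusted p 0.00213) and -0.89 in knockout cells (SE 0.21, adjusted p 0.00408; -1.07 without replicate 3). The knockout gave -0.84 with DMSO (SE 0.18, adjusted p 0.00967) and -0.87 with JQ1 (SE 0.21, adjusted p 0.0173; -1.06 without replicate 3). The interaction was -0.03 (95% interval -0.61 to 0.55), so the data allow a difference between the genotypes in the JQ1 effect of either sign. Of the knockout calls, that with DMSO was lost without wild-type DMSO replicate 3 (adjusted p 0.0619) or knockout DMSO replicate 2 (0.0513), and that with JQ1 without wild-type JQ1 replicate 1 (0.0688) or knockout JQ1 replicate 1 (0.0674), or with only the groups compared in the fit (0.0710).

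PGF, placental growth factor, fell with JQ1 and did not pass between the genotypes. It stood at 2.21, 2.83 and 3.22 CPM in wild-type DMSO libraries and at 1.57, 1.63 and 1.63 CPM with JQ1. Knockout cells had 3.69, 3.19 and 3.37 CPM with DMSO and 1.52, 1.66 and 1.46 CPM with JQ1. Libraries with JQ1 were lower than libraries with DMSO throughout, and within each treatment the genotypes overlapped. The fall was 1.71-fold in wild-type cells (log2 -0.77, SE 0.16, adjusted p 0.00191) and 2.21-fold in knockout cells (log2 -1.14, SE 0.16, adjusted p 7.26e-05; -1.10 without replicate 3). Both calls held in all 21 alternatives. The genotypes differed by 0.31 with DMSO (adjusted p 0.280) and -0.06 with JQ1 (adjusted p 0.894, and -0.02 without replicate 3).

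FLT1, the receptor of VEGFA, VEGFB and PGF, was higher in the knockout and rose with JQ1 in wild-type cells. It stood at 39.8, 45.1 and 42.2 CPM in wild-type DMSO libraries and at 50.6, 53.6 and 56.4 CPM with JQ1. The knockout libraries held 58.4, 56.3 and 55.9 CPM with DMSO and 62.9, 74.5 and 59.9 CPM with JQ1. Knockout JQ1 libraries were highest and wild-type DMSO libraries lowest, and wild-type JQ1 overlapped knockout DMSO. The knockout was 1.34-fold higher with DMSO (log2 0.42, SE 0.08, adjusted p 0.00369), a call that held in all 21 alternatives, and 1.23-fold higher with JQ1 (log2 0.30, SE 0.08, adjusted p 0.0329; 0.36 without replicate 3). JQ1 raised it by log2 0.34 in wild-type cells (SE 0.08, adjusted p 0.00467). In knockout cells the change of 0.21 did not pass (SE 0.08, adjusted p 0.0562), but passed without replicate 3 (log2 0.27, adjusted p 0.00971). It also passed with DESeq2 (0.21, adjusted p 0.0422), with the authors' own normalization factors (0.32, adjusted p 0.0123) and with limma on the authors' signal (0.32, adjusted p 0.0150). The genotype call with JQ1 was lost without wild-type DMSO replicate 3 (adjusted p 0.0538), replicate 1 (0.140) or 2 (0.0992) of wild-type JQ1, or knockout JQ1 replicate 2 (0.129). It was also lost with only the groups compared in the fit (adjusted p 0.139). With library totals as the only scaling, both that call (adjusted p 0.0924) and the wild-type JQ1 call (0.0884) were lost. The counts add all transcripts of the gene, so the full-length and soluble forms cannot be told apart.

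KDR, the main signalling receptor, was lower in the knockout with either treatment, and with DMSO by the largest fold of the 8 tested members. It stood at 10.1, 7.97 and 9.89 CPM in wild-type DMSO libraries and at 11.9, 10.9 and 11.5 CPM with JQ1. In knockout cells it stood at 2.82, 2.75 and 3.19 CPM with DMSO and at 6.36, 5.27 and 5.16 CPM with JQ1. The 4 groups did not overlap, in the order knockout DMSO, knockout JQ1, wild-type DMSO, wild-type JQ1. The knockout was 3.20-fold lower with DMSO (log2 -1.68, SE 0.13, adjusted p 1.06e-06) and 2.05-fold lower with JQ1 (log2 -1.04, SE 0.12, adjusted p 5.79e-05; -0.98 without replicate 3). Both calls held in all 21 alternatives, which ranged from -1.77 to -1.61 and from -1.14 to -0.98. JQ1 raised KDR 1.91-fold in knockout cells (log2 0.94, SE 0.13, adjusted p 6.92e-05; 1.00 without replicate 3). In wild-type cells the difference of 0.30 did not pass (SE 0.12, adjusted p 0.0620), but passed without knockout JQ1 replicate 1 (0.0493) or replicate 3 (0.0438), and with only the groups compared in the fit (log2 0.31, adjusted p 0.0312).

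As a share of the FLT1 and KDR counts together, KDR made up 18.1% ± 2.73 (SD, n = 3) in wild-type DMSO libraries and 17.7% ± 1.21 with JQ1. In knockout libraries it made up 4.89% ± 0.449 with DMSO and 7.91% ± 1.28 with JQ1 (mean 7.90% without replicate 3). Both knockout groups lay below all wild-type libraries (exact permutation p 0.1, two-sided, the smallest that 3 against 3 can give), and the wild-type groups overlapped (exact p 0.9). The share compares counts and not molecules, since the transcripts differ in length.

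FLT4, the VEGFC receptor of lymphatic endothelium, was barely detected. Its 12 libraries held 2 to 13 counts each, with group means of 0.206, 0.253, 0.300 and 0.200 CPM for wild-type DMSO, wild-type JQ1, knockout DMSO and knockout JQ1. The groups overlapped, and a difference was not detectable at this depth. When no filter was applied, its adjusted p was 0.642 or higher in all 5 contrasts. VEGFD, the other ligand of FLT4, had group means of 0.0655 to 0.200 CPM and was not tested either.

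NRP1, the co-receptor of VEGFA, was lower in the knockout in both treatments and rose with JQ1 in wild-type cells. It stood at 53.4, 54.8 and 53.5 CPM in wild-type DMSO libraries and at 74.9, 76.4 and 72.9 CPM with JQ1. In knockout cells it stood at 30.5, 32.5 and 33.2 CPM with DMSO and at 36.2, 34.4 and 35.6 CPM with JQ1. The groups were separate, in the order knockout DMSO, knockout JQ1, wild-type DMSO, wild-type JQ1, as for KDR. The knockout was 1.68-fold lower with DMSO (log2 -0.75, SE 0.06, adjusted p 1.06e-06) and 2.11-fold lower with JQ1 (log2 -1.08, SE 0.06, adjusted p 1.81e-08, also -1.08 without replicate 3). Both held in all 21 alternatives. JQ1 raised NRP1 1.39-fold in wild-type cells (log2 0.47, SE 0.06, adjusted p 1.43e-05). The change of 0.14 in knockout cells did not pass there (SE 0.06, adjusted p 0.0708, also 0.14 without replicate 3) or in any of the 21 alternatives. A small noncoding gene on the same strand, RN7SL398P, lies within NRP1 and had 184 counts over all 12 libraries, against 2843 to 6905 NRP1 counts per group.

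NRP2, the co-receptor of VEGFC and of semaphorins, rose with JQ1 and was higher in the knockout. It stood at 124, 123 and 119 CPM in wild-type DMSO libraries and at 161, 165 and 154 CPM with JQ1. In knockout cells it stood at 144, 139 and 151 CPM with DMSO and at 181, 185 and 200.2 CPM with JQ1. No groups overlapped, and the order was wild-type DMSO, knockout DMSO, wild-type JQ1, knockout JQ1. JQ1 gave a 1.31-fold rise in both genotypes, with log2 0.39 in wild-type cells (SE 0.06, adjusted p 8.89e-05) and 0.38 in knockout cells (SE 0.06, adjusted p 8.39e-05; 0.34 without replicate 3). The knockout was 1.18-fold higher with either treatment, with log2 0.24 and adjusted p 0.0136 with DMSO and 0.0142 with JQ1 (0.19 without replicate 3). The DMSO call was lost without wild-type DMSO replicate 3 (0.0578) or knockout DMSO replicate 3 (0.0613), and the JQ1 call without wild-type JQ1 replicate 3 (0.0703) or with only the groups compared in the fit (0.0784). An antisense gene, AC007362.1, overlaps NRP2 and had 261 counts in all libraries together.

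Between the genotypes NRP1 and NRP2 moved in opposite directions, and the makeup of the neuropilin counts differed. NRP1 contributed 30.6% ± 0.488 (SD, n = 3) of both in wild-type DMSO libraries and 31.9% ± 0.269 with JQ1. It contributed 18.2% ± 0.757 in knockout DMSO libraries and 15.8% ± 0.804 in knockout JQ1 libraries (mean 16.2% without replicate 3). All 4 groups were separate, with the 2 genotypes far apart and the treatments shifted in opposite directions (exact permutation p 0.1 for each comparison, the smallest possible). The VEGFA to VEGFB count ratio rose with JQ1 in each genotype, from 1.49 to 1.99 in wild-type cells and from 1.28 to 2.08 in knockout cells, with no overlap (exact p 0.1), and overlapped between the genotypes in both treatments (exact p 0.4 and 0.7). With JQ1 the overlap rests on knockout replicate 3, at 1.69: the other knockout JQ1 libraries, at 2.23 and 2.33, lay above the wild-type ones, at 1.76, 2.16 and 2.06.

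Whether JQ1 acted differently in the 2 genotypes was tested by the interaction. No member passed (edgeR's quasi-likelihood test), while 0.134% of all genes did, 0.0323% higher and 0.101% lower, and 2 members had an unadjusted p under 0.05. For KDR the JQ1 effect was larger in the knockout by log2 0.64 (95% interval 0.26 to 1.02, p 0.00258, adjusted p 0.261). For NRP1 it was smaller in the knockout by log2 0.33, that is an interaction of -0.33 (95% interval -0.50 to -0.16, p 0.00104, adjusted p 0.203). Leaving out knockout JQ1 replicate 3, the interaction was 0.70 for KDR (adjusted p 0.127) and -0.33 for NRP1 (adjusted p 0.0819). DESeq2 called 1 member, NRP1 (log2 -0.34, adjusted p 0.0140), and limma on the authors' signal called none. The intervals for the other 6 members included 0, from VEGFA (-0.11 to 0.40) and FLT1 (-0.37 to 0.11) to PGF (-0.87 to 0.12).

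The levels of some members followed each other over the 12 libraries, which share 4 groups and so are not independent points. Pearson's r of log2 CPM was 0.91 between KDR and NRP1 and 0.82 between FLT1 and NRP2. It was -0.91 between VEGFA and PGF and -0.88 between VEGFC and both FLT1 and NRP2. Among the 11250 tested genes that averaged 5 CPM or more, those closest to KDR in pattern were CPE (r = 0.994), which encodes a carboxypeptidase, ARHGAP29 (0.980) and DSEL (0.976). For NRP1 they were TGFBI (0.995), an extracellular matrix protein, PARP1 (0.992), a DNA-repair enzyme, and HMG20B (0.987). For VEGFA they were AXL (0.987), a receptor tyrosine kinase, ATP2B4 (0.984), a plasma membrane calcium pump, and SLC1A4 (0.984), an amino acid transporter. For NRP2 they were MAF (0.991), a transcription factor, ADAM15 (0.990) and TGFA (0.989), an EGF receptor ligand. FLT1 was closest to PDGFD (0.957), another growth factor, PCDH17 (0.944) and WDFY2 (0.933). PGF was closest to PROCR (0.984), the endothelial protein C receptor, and VEGFC to RAB6B (0.970). Next in order were TTC27 and MRPL15 for PGF and MRAS and TRAF5 for VEGFC.

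KDR lies on chromosome 4 at 55078259 to 55125595 (GRCh38, GENCODE 29), beside the class III receptor genes KIT and PDGFRA, and its neighbours were compared with it in the knockout. These were the 5 nearest tested genes on each side, a choice made after the KDR values were seen. With DMSO 2 of the 10 were lower and none higher: PDGFRA (log2 -0.50, adjusted p 0.0373) and CLOCK (-0.30), with a median of -0.09 over the 10 beside -1.68 for KDR. With JQ1 PDGFRA (-0.53; adjusted p 0.0510 without knockout JQ1 replicate 3), SRD5A3 (-0.32) and CLOCK (-0.33) were lower, and the median was -0.03. KIT differed by 1.17 with DMSO and 0.53 with JQ1 and did not pass. Of the 10 nearest tested genes of NRP1, on chromosome 10 at 33177492 to 33336262, none passed between the genotypes in either treatment by edgeR's quasi-likelihood test, DESeq2 or limma, and the number at an unadjusted p under 0.05 was 0 with DMSO and 1 with JQ1. Over all genes tested 7.92% passed with DMSO and 8.57% with JQ1. Small counts among 10 genes are therefore not read as a result about either locus.

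**Figure D4:**
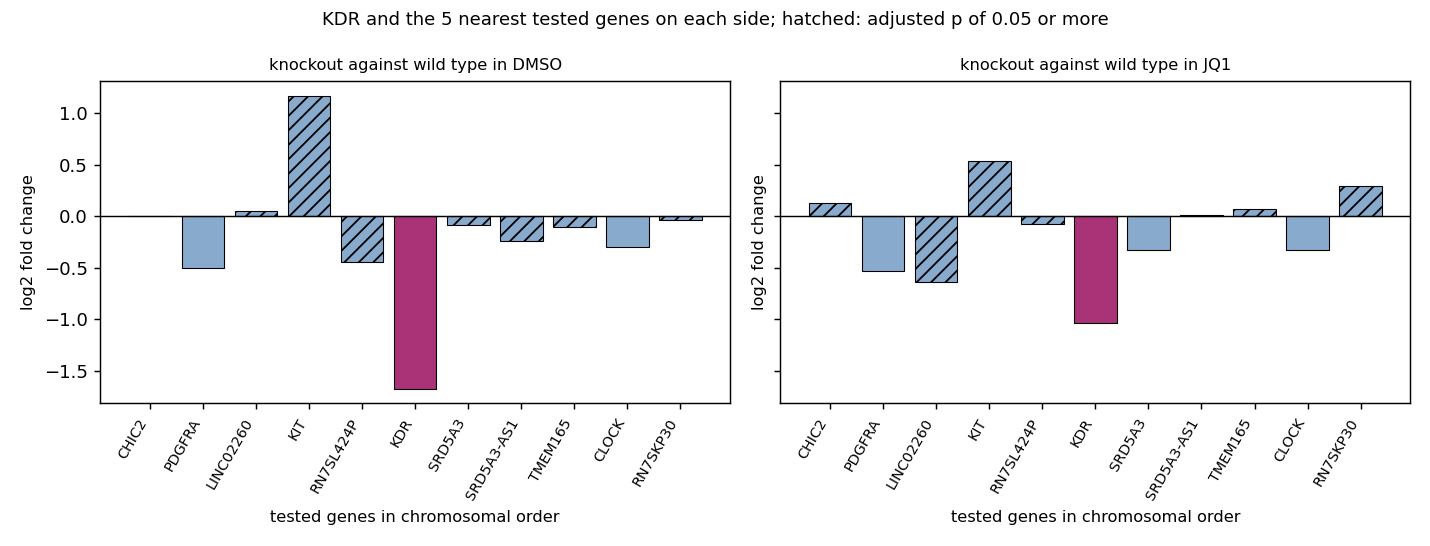
Log2 fold change of KDR (purple) and of the 5 nearest tested genes on each side (blue) between knockout and wild type, with DMSO (left panel) and JQ1 (right panel); x axis, genes in order along chromosome 4; hatched bars, adjusted p of 0.05 or more. KDR reaches -1.68 and -1.04, whereas the lowest neighbour, LINC02260 with JQ1, is at -0.64 and did not pass.

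The other genes of the pathway were described from lists, also chosen with earlier results of these data known. Of all genes tested, 33.1% passed with JQ1 in wild-type cells and 34.4% in knockout cells. Between the genotypes 7.92% passed with DMSO and 8.57% with JQ1. The lists are small, and their counts are to be read beside these shares. In each, genes beyond the 3 with the smallest adjusted p of a comparison are named after their values were seen. Of 10 genes that respond to hypoxia together with VEGFA, 8 rose with JQ1 in wild-type cells and 8 in knockout cells, with none lower; their median log2 change was 0.76 and 0.95, beside -0.03 and 0.00 over all genes. ANGPTL4, a secreted lipase inhibitor, went from 3.41 ± 0.367 to 32.6 ± 1.70 CPM (SD, n = 3) in wild-type cells (log2 3.26, SE 0.15, adjusted p 1.66e-09) and from 1.38 ± 0.340 to 19.0 ± 3.73 CPM in knockout cells. NDRG1 rose by log2 0.94 and 1.13 and LDHA, the lactate dehydrogenase subunit, by 0.83 and 1.06. CA9, a carbonic anhydrase, and PDK1 were the 2 that did not pass. Their log2 changes were -0.44 and -0.12 in wild-type cells (adjusted p 0.138 and 0.216). In knockout cells they were 0.39 and 0.18 (adjusted p 0.308 and 0.0591). Under the 21 alternatives up to 2 of the list were lower in wild-type cells. None was lower in knockout cells, where up to 10 were higher. In the knockout 5 of the 10 were lower with DMSO and none higher (median -0.34), and 4 were lower and 1 higher with JQ1 (median -0.15). CA9 stood at 13.5 ± 2.53 CPM in wild-type and 2.13 ± 0.968 CPM in knockout DMSO libraries (log2 -2.65, SE 0.25, adjusted p 6.93e-06). The log2 differences with DMSO were -1.12 for NDRG1, -0.64 for BNIP3, -1.30 for ANGPTL4 and -0.45 for PDK1. With JQ1 they were -1.82 for CA9, -0.93 for NDRG1, -0.78 for ANGPTL4, -0.33 for BNIP3 and 0.59 for ANKRD37. Without knockout JQ1 replicate 3 the hypoxia list gave 8, 9, 0 and 1 higher and 0, 0, 7 and 4 lower in the 4 comparisons, in the order above.

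Among the 9 genes of oxygen sensing and VEGFA transcription, 5 were higher and 1 lower with JQ1 in wild-type cells, and 6 higher and 2 lower in knockout cells (medians 0.31 and 0.33). HIF1A, a subunit of hypoxia-inducible factor, rose by log2 0.55 in wild-type cells (SE 0.08, adjusted p 9.82e-05), and EPAS1, its relative, by 1.28 from a low level of 1.35 ± 0.0545 CPM. EGLN1, the prolyl hydroxylase that marks HIF1A for degradation, rose by 0.36 and 0.44 in the 2 genotypes. HIF1AN rose by 0.31 and 0.35 and EGLN2 by 0.40 and 0.46, while SP1, a GC-box-binding factor, fell by 0.21 and 0.34. In knockout cells HIF1A rose by 0.32, EPAS1 by 0.92 and VHL by 0.33, and ARNT fell by 0.16. Between the genotypes EGLN1 was lower in the knockout with DMSO (log2 -0.56, SE 0.06, adjusted p 1.72e-05) and JQ1 (-0.48), and EGLN3 was lower with DMSO (-1.56) and JQ1 (-1.41) from under 1 CPM. HIF1A was lower with JQ1 (-0.44, adjusted p 0.00289), so 2 of the 9 were lower with DMSO and 3 with JQ1, and none was higher. Without knockout JQ1 replicate 3 it was 3 lower and 1 higher with DMSO and 2 lower with JQ1, where the EGLN3 call was lost (-1.41, adjusted p 0.0761).

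Of 7 RNA-binding proteins of AU-rich mRNAs, none passed between the genotypes (edgeR's quasi-likelihood test). Only 7.92% of all genes passed there with DMSO and 8.57% with JQ1, so none among 7 says little. At an unadjusted p under 0.05 there were 2 with DMSO and 1 with JQ1, DESeq2 called 1 in each, and limma 0. HNRNPL rose by log2 0.32 and ZFP36 by 0.46 with JQ1 in wild-type cells, where ZFP36L2 (0.32) made 3 of 7 higher and HNRNPD (-0.18) was lower, and ZFP36 rose by 0.49 in knockout cells. Of 12 tested semaphorins, plexins and partners that bind the neuropilins, 3 were higher and 4 lower with JQ1 in wild-type cells and 3 and 3 in knockout cells. SEMA3E fell by 1.67 and 1.78 on the log2 scale in the 2 genotypes, SEMA3D by 1.52 and 1.29 and SEMA3A by 0.83 and 0.92, and PLXNA2 fell by 0.65 in wild-type cells. GIPC1, an adaptor that binds the neuropilin tail, rose by 0.75 and 0.65, PLXNA3 by 0.94 and 1.03 and SEMA3C by 0.59 and 0.47. In the knockout PLXNA2, a semaphorin co-receptor, was lower with DMSO (-1.05, adjusted p 0.00264) together with SEMA3G (-0.69), and SEMA3B (-0.44) and SEMA3G (-0.60) were lower with JQ1. The other genes of these 2 lists did not pass in those comparisons. Without knockout JQ1 replicate 3, the RNA-binding proteins gave 1 higher and 1 lower with DMSO and 2 lower with JQ1 between the genotypes, and the neuropilin list 1 higher and 5 lower with DMSO and 3 lower with JQ1, where the SEMA3G call was lost (-0.54, adjusted p 0.0724).

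Of 31 genes of VEGF receptor downstream signalling, 10 were higher and 8 lower with JQ1 in each genotype (medians 0.09 and 0.04, falling to -0.04 and -0.08 at the lowest under the alternatives). Over all genes tested, 16.9% were higher and 16.2% lower in wild-type cells, and 16.7% and 17.8% in knockout cells. PXN, the focal adhesion adaptor paxillin, rose by log2 0.88, PIK3R1 by 0.72 and MAP2K1 by 0.45 in wild-type cells. In knockout cells MAP2K1 rose by 0.55, and MAPK3 (-0.87) and MAPKAPK3 (-0.89), an MK2 relative, fell. Group means moved the same way in the other genotype. In knockout cells PXN went from 370 to 617 CPM and PIK3R1 from 37.2 to 53.7 CPM. In wild-type cells MAPK3 went from 51.4 to 37.2 CPM and MAPKAPK3 from 28.7 to 20.8 CPM. No gene of the downstream list passed in the interaction. Between the genotypes 1 was higher and 3 lower with DMSO: PXN at 0.36 (adjusted p 0.0136), and MAPKAPK2 itself (-2.85), PRKCA (-0.31) and PTGS2 (-1.28), the inducible cyclooxygenase. With JQ1, RCAN1, a calcineurin regulator induced by VEGF, was higher (0.37) and 5 were lower: MAPKAPK2 (-3.02), PTGS2 (-1.54), SRC (-0.45), MAPKAPK3 (-0.36) and MAPK3 (-0.30). MAPKAPK2 is on the list and was the edited gene, so its fall adds 1 to both counts. Over all genes 7.92% passed with DMSO and 8.57% with JQ1, so these counts are not read as a result about the pathway. Without knockout JQ1 replicate 3, 2 were higher and 5 lower with DMSO, and 1 higher and 9 lower with JQ1. With JQ1 against DMSO in knockout cells it was then 9 higher and 8 lower, AKT1 having lost its call (log2 0.11, adjusted p 0.176), while the other lists but the hypoxia one gave the counts they gave with that library.

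Among 8 tested PDGF ligands and class III receptors, relatives of the VEGF system, PDGFRB fell with JQ1 by 1.41 and 1.83 on the log2 scale and PDGFD rose by 0.85 and 0.66. PDGFB also fell, by 2.45 and 2.32, and PDGFC rose by 0.63 in wild-type cells. With JQ1, PDGFB had 2 to 9 counts per wild-type library and 0 to 4 per knockout library. PDGFRA rose with JQ1 by 0.64 and 0.61 and was lower in the knockout by -0.50 (DMSO) and -0.53 (JQ1). PDGFD was higher in the knockout, at 6.85 ± 0.324 CPM against 3.25 ± 0.0567 CPM with DMSO (log2 1.07, SE 0.10, adjusted p 1.05e-05) and by 0.89 with JQ1, and PDGFRB was lower with JQ1 (-0.83). With knockout JQ1 replicate 3 left out, the 8 gave 1 higher and 2 lower with DMSO and 1 higher and 1 lower with JQ1 between the genotypes, and the PDGFRA call with JQ1 was lost (-0.47, adjusted p 0.0510). Of 12 other angiogenesis regulators, all 12 passed with JQ1 in wild-type cells, 4 higher and 8 lower, and 9 in knockout cells, 3 higher and 6 lower. THBS1, thrombospondin 1, rose by 0.87 and 1.15, CTGF by 1.48 and 1.31 and COL18A1 by 0.55 and 0.75, in that order of genotypes, and CYR61 by 0.24 in wild-type cells. SERPINF1, an inhibitor of angiogenesis, fell by 4.19 in wild-type cells, and THBS2 by 2.12 and CXCL8, a chemokine, by 2.16 in knockout cells. Group means of these genes also fell in the other genotype. SERPINF1 went from 3.41 to 0.101 CPM in knockout cells. In wild-type cells THBS2 went from 6.72 to 1.59 CPM and CXCL8 from 30.9 to 13.7 CPM. No gene of this list passed in the interaction. In the knockout with DMSO CXCL8 (-1.91), THBS1 (-0.79) and SERPINF1 (-1.98) were lower and none was higher. With JQ1 CXCL8 (-2.90), SERPINF1 (-2.71), THBS1 (-0.51) and CYR61 (-0.29) were lower, and ADAMTS1 (0.80) and FGF1 (0.70) were higher. The size of the SERPINF1 difference rests on few counts, 0 to 6 per knockout JQ1 library. With that library left out, this list gave 1 higher and 3 lower with DMSO, and 2 higher and 4 lower with JQ1, where SERPINF1 was at -3.54.

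**Figure D5:**
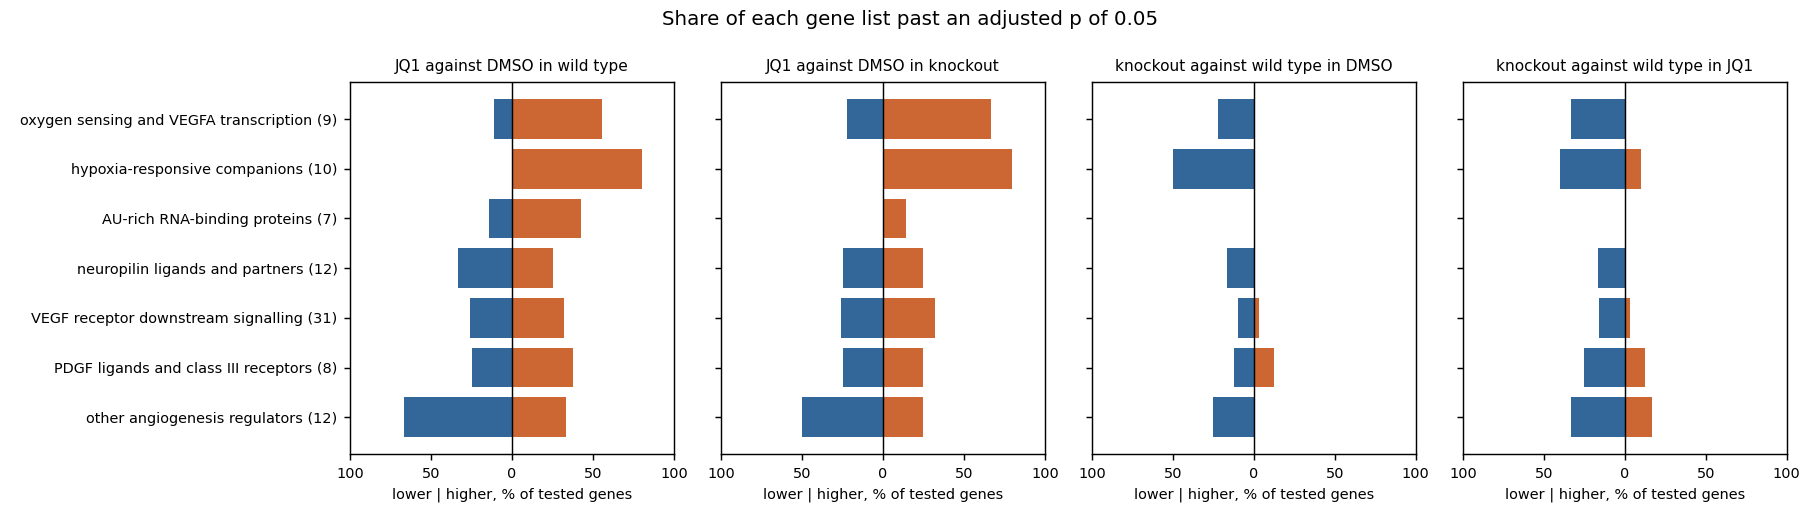
Share of the tested genes of each list (number tested in parentheses) with an adjusted p under 0.05 in each of the 4 comparisons (x axis, percent; to the right, higher; to the left, lower; bars, lists). The hypoxia list is mostly higher with JQ1 (8 of 10 in both genotypes) and has no higher gene in the knockout with DMSO. Over all genes tested, 33.1%, 34.4%, 7.92% and 8.57% passed in the 4 comparisons, from left to right.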

How the data were processed

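RNA of 12 A375 cultures was depleted of ribosomal RNA and made into strand-specific libraries, per the labels' protocols. Per the submitters' processing notes, tools included Trim Galore, cutadapt, FastQC, MultiQC, kallisto and DESeq2, and the build was GRCh38.p10; versions are not given in the sources used here. The authors deposited estimated counts per gene symbol and a normalized signal. The ratio of rounded count to normalized signal varied between genes within a library. This ratio served here as the authors' normalization factor, and how they obtained the signal was not tested. Whether counting used the strand is not stated. The design assumed whole counts, and the estimated counts were rounded. A filter on low counts (filterByExpr) left 21698 genes. Libraries were scaled with TMM (factors 0.926 to 1.06) and fitted together, with 1 coefficient for each of the 4 groups, by edgeR's quasi-likelihood test (edgeR 4.0.16, limma 3.58.1, R 4.3.3; prior count 0.125). The Benjamini-Hochberg adjustment ran over all tested genes, and calls used an adjusted p under 0.05. SEs were derived from the fold change and its F statistic, and intervals are 95%. The members and lists were chosen with earlier results of these data known. All members were named; of each list, up to 3 genes per contrast with the smallest adjusted p; and the 3 closest genes in pattern (those of VEGFB are not reported here). Genes were placed with GENCODE 29 by symbol. DESeq2 1.42.0 and limma on log2(signal + 0.5) were alternatives. The fit was tested on simulated data.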

Additional observations from a re-analysis of the deposited data

How the results depend on the processing

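Each member was refitted under 21 alternatives in 4 contrasts and 20 in the interaction. All of the calls of KDR and NRP1 between the genotypes held in them. Of the members called between the genotypes with JQ1, 2 (KDR and NRP1) were left in a fit of just the 2 groups in question, and leaving out 1 library gave 3 (without wild-type JQ1 replicate 1) to 7. The interaction had 1 member, NRP1, with DESeq2, and 0 whenever a library was left out. Leaving out 1 library gave 6 to 8, 5 to 6 and 4 to 6 members in the other 3 comparisons. Signs reversed only for differences that never passed. When 1 library was left out, VEGFB with JQ1 in the knockout ran from -0.0260 (without knockout JQ1 replicate 3) to 0.326, and VEGFB between the genotypes with DMSO from -0.248 to 0.0663 (without knockout DMSO replicate 1). The interaction of NRP2 ran from -0.0503 to 0.0280 and that of VEGFC from -0.214 to 0.168, and with library totals as the scaling that of NRP2 was 0.0103. The cause was not tested.

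Library totals as the only scaling moved the median of all genes to -0.16 and -0.12 with JQ1 in wild-type and knockout cells, from -0.03 and 0.00. Genes called over the whole table ran from 1092 to 2650 between the genotypes with DMSO when 1 library was left out (1718 with all; 2619 with only the groups compared) and from 1223 to 2331 with JQ1 (1860 with all; 922 with only the groups compared). For the interaction they ran from 8 to 88 (29 with all), and reached 236 with no low-count filter. The labels do not say whether libraries of the same replicate number share a batch. Same-numbered deviations from the group means correlated from -0.115 to 0.0786, so no strong shared deviation was seen. With the replicate block, member calls were 6, 5, 6, 5 and 0, as without it. Depth limits FLT4, with 2 to 13 counts per library, and VEGFC, with 20 to 42 in knockout JQ1 libraries. It also limits list genes such as SERPINF1 (0 to 6), PDGFB (0 to 4) and PTGS2 (4 to 14) in knockout JQ1 libraries. Counts of list genes under each alternative were added after seeing the data.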
